A study of Rattus norvegicus with 18 samples.

Results

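The genes described here are 38 rat genes of protein folding in the endoplasmic reticulum and of the unfolded protein response, read in the colon of rats with colitis. A gene was represented by the probe set that the platform annotation gives to that gene symbol alone and, where several qualified, by the one with the highest mean over the 18 arrays. This found 37 of the 38 genes among the 14217 genes with such a probe set. Ern1, the stress sensor IRE1, had none and was not analysed here.

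RNA from homogenised colon of full thickness was hybridised to 1 Affymetrix Rat Genome 230 2.0 array per sample. Controls were 6 healthy rats given a saline enema. The colitis groups were rats given 1 enema of 10 mg trinitrobenzene sulfonic acid (TNBS, a hapten that provokes bowel inflammation) in 50% ethanol, with 3 replicates each on days 2, 5, 7 and 14. The sources used here do not give strain, sex, age or the day on which controls were sampled. Colitis replicates had been chosen for their inflammatory markers (myeloperoxidase activity, weight loss and colon weight for its length), and no group with ethanol alone was analysed here, so effects of TNBS and of ethanol cannot be told apart.

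The endoplasmic reticulum is where secreted and membrane proteins enter through the Sec61 channel and are folded by chaperones and disulfide isomerases. When unfolded proteins accumulate, the sensors ATF6, IRE1 (Ern1) and PERK (Eif2ak3) act through ATF6 itself, through XBP1 and through ATF4 and CHOP (Ddit3), and the genes of chaperones and of protein degradation are induced. In the colon, goblet cells and plasma cells are known for a heavy secretory load and a need of this pathway. The array reads total mRNA, so neither the splicing of Xbp1 nor the cleavage of ATF6 nor the phosphorylation of the sensors is seen.

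A classic element of this response in promoters is the endoplasmic reticulum stress element, ERSE, which is CCAAT and CCACG with 9 bases of any kind between them. In a window from 250 bases before to 50 bases after the annotated gene start (RefSeq, build GRCr8), it was found on either strand in 22 of 33469 windows, 0.0657%. Windows of 29 of the 38 genes were at hand; those of Manf, Pdia3, Pdia6, Ero1a, Sec61a1, Kdelr2, Derl1, Atf6 and Ern1 were not. The element was present in 7 of the 29. These are its copies, shown because the genes that carry them include both genes that rose and genes that were not called; each is read 5′ to 3′ along the strand it lies on, with the fixed letters in capitals.
Hspa5, chr3:38452973-38452991, plus strand: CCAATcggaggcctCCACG
Hsp90b1, chr7:23012347-23012365, plus strand: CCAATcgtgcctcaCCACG
Hsp90b1, chr7:23012451-23012469, minus strand: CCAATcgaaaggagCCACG
Calr, chr19:40213135-40213153, minus strand: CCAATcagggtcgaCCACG
Canx, chr10:35158069-35158087, minus strand: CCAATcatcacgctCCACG
Creld2, chr7:121789239-121789257, minus strand: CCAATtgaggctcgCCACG
Dnajc3, chr15:102432534-102432552, plus strand: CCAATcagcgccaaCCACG
Xbp1, chr14:84604558-84604576, plus strand: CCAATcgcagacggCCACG
The related ERSE-II, which is ATTGG and CCACG with 1 base of any kind between them, was found in 17 windows, 0.0508%, among them those of 3 of the genes.
Herpud1, chr19:10614821-10614831, minus strand: ATTGGgCCACG
Dnajb11, chr11:91672800-91672810, minus strand: ATTGGcCCACG
Hyou1, chr8:53602794-53602804, minus strand: ATTGGgCCACG
Hyou1, chr8:53602694-53602704, minus strand: ATTGGcCCACG

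Other elements searched on both strands were the ATF4-type element TTGCATCA, in 266 windows (0.795%) and in Chac1 and Herpud1, and the cyclic AMP element TGACGTCA, in 612 windows (1.83%) and in Ppp1r15a. The short pieces of ERSE are common: CCAAT alone was in 37.5% of windows and CCACG alone in 31.6%, and both lie inside ERSE. A match describes the letters only. The start of the window was the outer end of the annotated gene for 18 of the 29 genes and lay inside it for 11, among them Herpud1 (by 9461 bases), Creld2 (630) and Canx (97), so sequence before their outermost start was not searched. The 250 bases before the start that the RefSeq table uses follow for 5 genes on which the results turn, 5′ to 3′ along the gene. Hsp90b1 (chr7:23012294-23012543, minus strand) rose on every day and holds 2 ERSE copies, one of them reversed, in capitals. Hspa5 (chr3:38452766-38453015, plus strand), with 1 ERSE in capitals, was not called on any day. Herpud1 (chr19:10614708-10614957, minus strand) was lower in colitis, and capitals mark its TTGCATCA and its ERSE-II. Ppp1r15a (chr1:105139597-105139846, minus strand) rose on day 7, and capitals mark TGACGTCA. Ddit3 (chr7:65001445-65001694, plus strand) rose on days 5 and 7 and holds none of these 4 elements; its capitals mark 1 CCACG and 1 reversed CCAAT.
Hsp90b1: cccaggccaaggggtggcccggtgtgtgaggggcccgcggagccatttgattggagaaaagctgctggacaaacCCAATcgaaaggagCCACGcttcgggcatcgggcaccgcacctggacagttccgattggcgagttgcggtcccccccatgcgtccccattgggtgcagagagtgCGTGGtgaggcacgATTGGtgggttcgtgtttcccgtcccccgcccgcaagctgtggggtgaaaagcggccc
Hspa5: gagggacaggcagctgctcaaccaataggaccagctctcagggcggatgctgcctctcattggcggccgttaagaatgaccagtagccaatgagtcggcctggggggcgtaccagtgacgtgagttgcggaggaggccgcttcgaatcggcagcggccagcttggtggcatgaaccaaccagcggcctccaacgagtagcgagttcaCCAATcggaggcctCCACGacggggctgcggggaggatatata
Herpud1: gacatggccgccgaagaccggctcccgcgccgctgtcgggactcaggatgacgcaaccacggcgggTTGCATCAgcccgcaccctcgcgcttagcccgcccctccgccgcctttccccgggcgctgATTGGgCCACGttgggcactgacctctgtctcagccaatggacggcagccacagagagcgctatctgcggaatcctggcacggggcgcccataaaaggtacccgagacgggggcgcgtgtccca
Ppp1r15a: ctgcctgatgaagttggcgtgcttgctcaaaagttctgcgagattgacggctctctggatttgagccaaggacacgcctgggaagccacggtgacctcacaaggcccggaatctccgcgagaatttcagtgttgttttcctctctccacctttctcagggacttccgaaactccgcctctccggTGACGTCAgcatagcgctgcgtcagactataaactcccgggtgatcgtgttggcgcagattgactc
Ddit3: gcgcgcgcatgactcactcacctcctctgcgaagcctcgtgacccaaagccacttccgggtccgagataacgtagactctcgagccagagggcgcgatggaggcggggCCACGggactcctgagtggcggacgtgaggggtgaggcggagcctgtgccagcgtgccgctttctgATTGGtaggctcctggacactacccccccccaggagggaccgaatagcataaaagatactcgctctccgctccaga

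**Figure D1:**
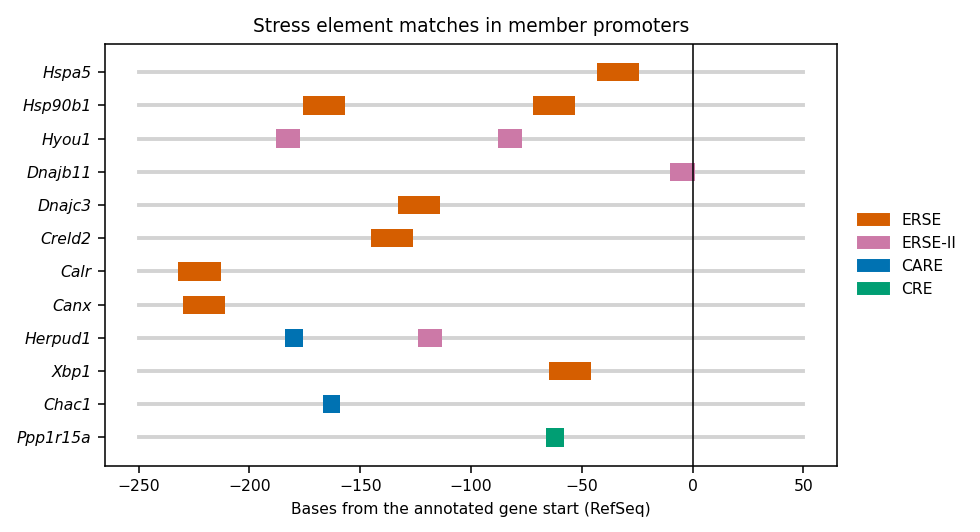
Positions of the 4 elements in the windows of the genes that hold one; the horizontal axis is the distance in bases from the annotated gene start, grey lines are the windows searched, and coloured bars are matches on either strand. ERSE copies start between 43 and 232 bases before the gene start, and Hsp90b1 and Hyou1 hold 2 copies of their element each.

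The deposited values were read as log2, a base that the sources used here do not state. Array medians ranged from 4.267 to 4.300 in controls and from 5.024 to 5.072 in the colitis arrays, so all values below are log2 values after quantile normalization of the 18 arrays. The median gene then differed from control by -0.01, -0.02, -0.06 and -0.02 on days 2, 5, 7 and 14, against 0.62, 0.59, 0.56 and 0.62 as deposited and -0.15, -0.17, -0.21 and -0.13 after median centring. The sample labels enter Trizol extraction for the colitis samples and only a technical manual for controls, although the series text gives Trizol for all; a difference in extraction cannot be told apart from treatment. The 3′ minus 5′ signal of Gapdh ran from -0.16 to 0.14 in controls and from 0.36 to 0.72 in colitis, and that of Actb from 1.87 to 2.26 and from 0.85 to 1.43; the part of RNA quality in the differences from control was not tested. All goblet, epithelial and smooth muscle markers (8 of 8, 9 of 9 and 8 of 8) lay above the upper quartile of genes in controls and in each colitis group, so the labelled tissue carried its markers. Array 1 of day 2 correlated on average 0.970 with the other day 2 arrays and 0.987 with the day 14 arrays. Arrays 2 and 3 of day 2 correlated 0.976 with each other. In such bulk tissue, fewer cells of a type and less RNA per cell cannot be told apart.

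The words rose and fell are kept for genes whose limma adjusted p (Benjamini-Hochberg over 31042 probe sets) was under 0.05 with 1 sign of the difference on all 3 scales. On day 2, 8 of the 37 genes rose, beside 11.1% of all genes. None fell, beside 4.23%, although 5 were lower at an unadjusted limma p under 0.05 and 1 of these, Edem1, passed the adjusted threshold but changed sign between scales. On day 5, 10 rose (14.3% of all genes did) and 3 fell (6.65%). On day 7, 11 rose (14.3%) and 1 fell (7.24%), and on day 14, 4 rose (6.32%) and 1 fell (1.23%). The median difference of the 37 genes was 0.24, 0.25, 0.19 and 0.04 on days 2, 5, 7 and 14, beside -0.01, -0.02, -0.06 and -0.02 over all genes. All 4 comparisons share the same 6 control arrays. By adjusted p alone, whatever the sign on the other scales, 9 genes were higher and 1 lower on day 2, beside 11.4% and 10.7% of all genes. On day 5 these were 10 and 3 (14.7% and 16.5%), for day 7 they were 11 and 5 (14.7% and 18.7%), and at day 14 there were 4 and 2 (6.39% and 6.35%).

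Leaving out 1 array moved some of these counts. Without array 1 of day 2, 13 genes rose on that day, the 5 gained being Sdf2l1, Manf, Pdia6, Erp29 and Asns. Without array 2 of day 5, no gene fell on day 5. Leaving out array 1 or array 2 of day 7 left 7 that rose on day 7. On day 14 the count of risen genes was 2 after leaving out control 1, 3, 4 or 6, day 2 array 2, day 5 array 3, or day 14 array 2 or 3. For falls the count became 1 on day 2 without day 5 array 2 or day 14 array 1, and 2 on day 7 without any 1 of the day 7 arrays. On day 14 it became 0 without day 14 array 1, and 2 without control 3, day 2 array 1 or 2, day 5 array 2 or day 7 array 1.

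**Figure D2:**
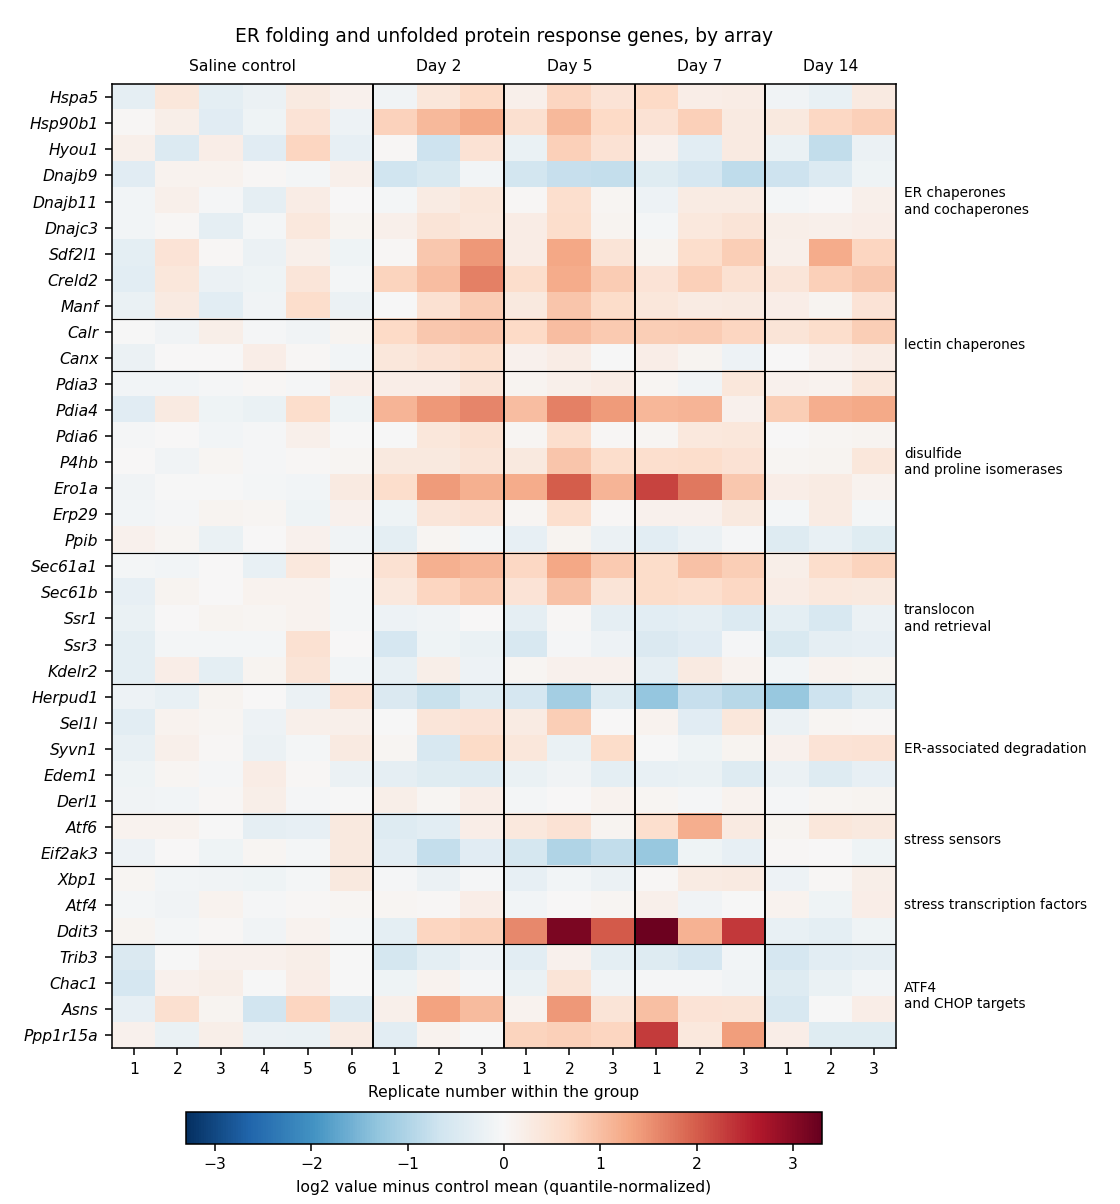
Each row is one of the 37 genes grouped by role and each column one of the 18 arrays; colour gives the quantile-normalized log2 value minus the mean of the 6 controls. Calr, Pdia4, Creld2 and Hsp90b1 are red throughout the colitis columns, Ddit3 mainly on days 5 and 7, and Herpud1 is blue in all 12.

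Among the 9 chaperones and cochaperones, 2 rose on day 2, 3 on day 5, 2 on day 7 and 2 on day 14. Hsp90b1, the Hsp90 chaperone of the endoplasmic reticulum (GRP94), and Creld2, a secreted cysteine-rich protein of the stress response, rose on all 4 days. Hspa5, the master Hsp70 chaperone BiP that also holds the sensors inactive, was not called on any day. Dnajb9 (ERdj4), a cochaperone of BiP that restrains IRE1, fell on day 5.

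Hsp90b1 lay between 9.95 and 10.77 in controls, with a median of 10.27. Its arrays 1, 2 and 3 gave 11.08, 11.39 and 11.57 (day 2), 10.86, 11.40 and 10.98 (day 5), 10.81, 11.10 and 10.62 (day 7), and 10.64, 10.996 and 11.12 (day 14). All arrays of days 2 and 5 stood above every control, while 1 array each of days 7 and 14 lay within the control range. The differences from control were 1.02 ± 0.18 (SE of the limma fit; 2.03-fold, adjusted p = 0.00127), 0.75 ± 0.18 (adjusted p = 0.00609), 0.52 ± 0.18 (adjusted p = 0.0418) and 0.60 ± 0.18 (adjusted p = 0.0425). The day 5 call ended without day 5 array 2 (adjusted p = 0.0517). That of day 7 ended without control 1, 3, 4 or 6, day 7 array 1 or 2, or day 14 array 2, with adjusted p up to 0.187. The call of day 14 ended without control 1, 3, 4 or 6, day 2 array 2, day 5 array 3, day 7 array 1, or day 14 array 2 or 3 (up to 0.174). After median centring Hsp90b1 was called on day 2 only, with adjusted p of 0.176, 0.569 and 0.309 on the later days, and a fit of the 2 groups alone gave 0.052 for day 7.

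Creld2 ran from 7.20 to 7.94 in controls, median 7.44. It read 8.29, 8.56 and 9.22 (day 2), 8.13, 8.78 and 8.38 (day 5), 8.002, 8.35 and 8.06 (day 7), and 7.96, 8.34 and 8.43 (day 14). No colitis array overlapped the controls. Its differences were 1.14 ± 0.21 (2.21-fold, adjusted p = 0.0017), 0.89 ± 0.21 (0.00604), 0.59 ± 0.21 (0.0478) and 0.70 ± 0.21 (0.0431), by limma's adjusted p. The day 5 call ended without day 5 array 2 (adjusted p = 0.0504). The later calls each ended without control 1, 3, 4 or 6, day 2 array 2, day 5 array 3, day 7 array 3, or day 14 array 2 or 3, and that of day 7 also without day 7 array 1 or 2 (adjusted p up to 0.173 on day 7 and 0.161 on day 14). After median centring the day 7 value was 0.0526.

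Hspa5 spread from 10.77 to 11.48 over the controls, median 11.07. Colitis arrays gave 10.99, 11.47 and 11.77 (day 2), 11.28, 11.81 and 11.55 (day 5), 11.76, 11.32 and 11.35 (day 7), and 10.98, 10.85 and 11.39 (day 14). Every day overlapped the controls. The differences were 0.31, 0.45, 0.38 and -0.02, each ± 0.20, with adjusted p of 0.303, 0.113, 0.175 and 0.959 by limma. The unadjusted 95% intervals ran from -0.12 to 0.74 on day 2, from 0.02 to 0.88 on day 5, from -0.05 to 0.81 on day 7 and from -0.45 to 0.40 on day 14.

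Dnajb9 had control values of 7.19 to 7.74, median 7.63. Day 5 gave 6.95, 6.80 and 6.78, all below the controls, and day 7 gave 7.15, 7.00 and 6.72, below them too. Days 2 and 14 overlapped them, with 6.92, 7.06 and 7.46 (day 2) and 6.88, 7.10 and 7.43 (day 14). The difference was -0.72 ± 0.15 on day 5 (adjusted p = 0.00239), but only -0.03 as deposited (adjusted p = 0.857). Without control 6 or day 5 array 2 its sign was no longer the same on the 3 scales, which ended the call. On day 7 it was -0.60 ± 0.15 (adjusted p = 0.0067), but 0.10 as deposited, and that call ended without day 7 array 3 (adjusted p = 0.0516).

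Manf, a secreted factor that protects stressed cells, rose on day 5 by 0.60 ± 0.20 (adjusted p = 0.0374), with arrays at 9.68, 10.27 and 9.96 against controls of 9.03 to 9.94. The lowest of these 3 arrays lay within the control range. The call ended without control 1, 3, 4 or 6 or day 5 array 2 or 3 (adjusted p up to 0.194), after median centring (0.342), and in a fit of the 2 groups alone (0.0571). Sdf2l1, a partner of the cochaperone ERdj3, differed by 0.78, 0.64, 0.50 and 0.70 (each ± 0.30) and passed on no day; its day 2 arrays read 7.29, 8.15 and 8.68. Hyou1, the nucleotide exchange factor of BiP, Dnajb11 (ERdj3) and Dnajc3 (p58IPK) differed by -0.42 to 0.35 and were not called on any day.

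Of the lectin chaperones, which retain glycoproteins until they are folded, Calr (calreticulin) rose on all 4 days and Canx (calnexin) on day 2. Calr ran from 9.50 to 9.82 in controls, median 9.58. Its values were 10.28, 10.52 and 10.55 (day 2), 10.28, 10.64 and 10.47 (day 5), 10.42, 10.45 and 10.33 (day 7), and 10.04, 10.19 and 10.43 (day 14). Each of the 12 colitis arrays lay above every control. Calr differed by 0.83 (1.78-fold), 0.85, 0.78 and 0.60, each ± 0.11, with adjusted p of 9.69e-05, 5.34e-05, 8.11e-05 and 0.00162. All 4 calls held under the 26 alternatives tried, leaving out each array included.

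Canx read 10.10, 10.22 and 10.33 (day 2), above the controls at 9.55 to 9.96 (0.48 ± 0.10, adjusted p = 0.00421). It differed by 0.13, 0.05 and 0.14 on days 5, 7 and 14, not called. After median centring the day 2 call ended (adjusted p = 0.366). Both other probe sets of Canx had an adjusted p under 0.05 on every day: 1 was higher by 0.51, 0.32, 0.30 and 0.27, and the other by 1.31, 0.70, 0.82 and 0.96. The probe sets of this gene thus disagreed on days 5, 7 and 14.

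Of the 7 genes of disulfide and proline isomerisation, 2 rose on day 2, 3 on each of days 5 and 7, and 1 on day 14. Pdia4 (ERp72) rose on all 4 days, Ero1a, which reoxidises protein disulfide isomerase, on days 2, 5 and 7, and P4hb, protein disulfide isomerase itself and a subunit of the collagen prolyl hydroxylase, on days 5 and 7.

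Pdia4 ran from 7.29 to 8.22 in controls, median 7.50. It read 8.76, 9.09 and 9.26 (day 2), 8.66, 9.32 and 9.05 (day 5), 8.75, 8.77 and 7.80 (day 7), and 8.46, 8.84 and 8.90 (day 14). Of the 12 colitis arrays, array 3 of day 7 alone lay within the control range. The differences were 1.39 (2.62-fold), 1.37, 0.79 and 1.09, each ± 0.24, with adjusted p of 0.00103, 0.000724, 0.0207 and 0.00757. The day 7 call ended without day 7 array 1 or 2 (adjusted p up to 0.115) and with array weights (0.0706).

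Ero1a had control values of 7.22 to 7.65, median 7.29. Colitis arrays gave 7.93, 8.73 and 8.52 (day 2), 8.57, 9.33 and 8.47 (day 5), and 9.57, 9.07 and 8.24 (day 7), all above the controls. On day 14 they were 7.55, 7.62 and 7.47, within the control range, whose top of 7.65 is control 6 alone. The other controls ran from 7.22 to 7.34, below all 3 arrays of day 14. The differences from control on days 2, 5, 7 and 14 were 1.05 ± 0.24 (adjusted p = 0.00753), 1.45 (0.000576), 1.62 (3.08-fold, 2e-04) and 0.20 (0.647). That of day 14 was 0.97 as deposited (limma adjusted p = 0.000825), where the median gene differed by 0.62. After median centring it was 0.22 (0.45). The day 2 call ended without day 2 array 2 (adjusted p = 0.0546). Another probe set of Ero1a was higher by 0.98 on days 5 and 7 (adjusted p = 0.019 and 0.0173) and differed by 0.49 on day 2 (adjusted p = 0.252).

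P4hb lay between 11.08 and 11.28 in controls, median 11.22. It read 11.52, 11.54 and 11.63 (day 2), 11.54, 12.13 and 11.78 (day 5), 11.77, 11.79 and 11.69 (day 7), and 11.27, 11.29 and 11.59 (day 14). Days 2, 5 and 7 lay above all controls. Differences were 0.61 ± 0.11 on day 5 (adjusted p = 0.000669) and 0.54 ± 0.11 on day 7 (adjusted p = 0.00132), both lost after median centring, with adjusted p of 0.283 and 0.68. Without day 7 array 1 the sign on day 7 differed between scales, which also ended that call. On day 2 it was 0.36 (adjusted p = 0.026) but -0.12 after median centring, so no rise is stated. Pdia3 (ERp57), the partner of both lectins, Pdia6, Erp29 and Ppib (cyclophilin B) differed by -0.36 to 0.28 and were not called on any day.

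**Figure D3:**
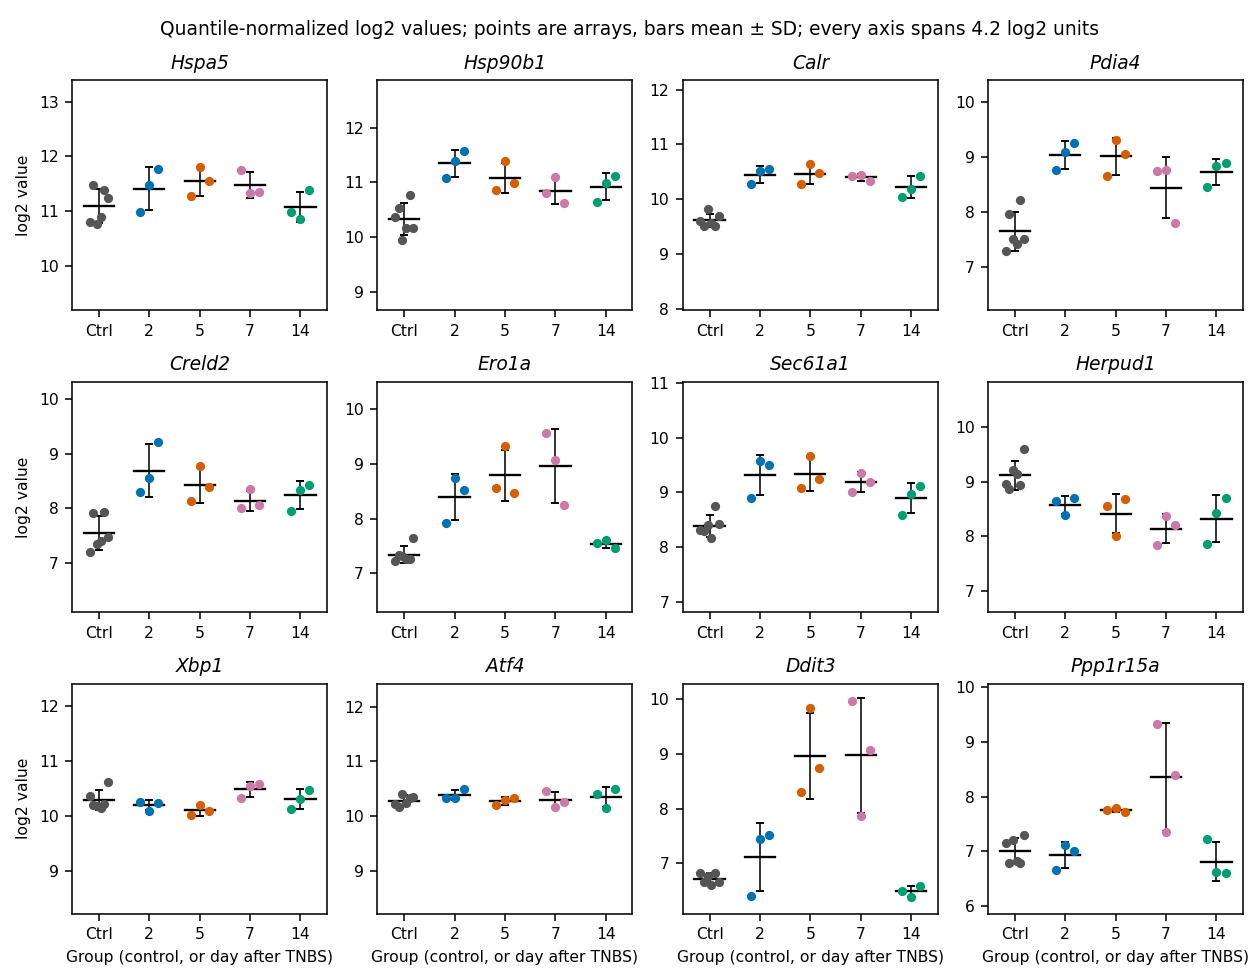
Quantile-normalized log2 values of 12 genes by group; points are arrays, horizontal bars the group mean and whiskers the SD (6 controls, 3 arrays a day), with vertical axes of equal span and different position. Calr stands above the controls in all 12 colitis arrays, Ddit3 and Ero1a stand high on days 5 and 7 and near the controls on day 14, and Xbp1 and Atf4 overlap the controls on every day.

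In the translocon Sec61a1 and Sec61b rose on days 2, 5 and 7, and none of the other 3 genes of translocation and retrieval in the list of 38 rose or fell. The remaining Sec61 subunit, Sec61g, stands in the wider pathway list; it differed by -0.20, -0.27, -0.37 and -0.29, each ± 0.13, and fell on day 7 (adjusted p = 0.0474), named here after its values were seen. Sec61a1, the pore of the channel, read 8.90, 9.56 and 9.50 (day 2), 9.08, 9.67 and 9.25 (day 5), 9.003, 9.36 and 9.19 (day 7), and 8.59, 8.96 and 9.12 (day 14). Controls ran from 8.16 to 8.75, median 8.36, and were overlapped only by day 14. Its differences were 0.93 ± 0.17 (adjusted p = 0.00172), 0.94 (0.00103), 0.79 (0.00285) and 0.50 (0.0732). Another probe set of Sec61a1 was higher on day 2 by 0.59 (adjusted p = 0.0367). It differed by 0.29, 0.22 and 0.02 on days 5, 7 and 14, not called (adjusted p = 0.279, 0.401 and 0.959). A further one, with a low mean level of 4.18, differed by 0.18, 0.13, -0.01 and 0.18 and was not called. The rises of days 5 and 7 thus rest on the probe set used. Sec61b, the small subunit, differed by 0.65, 0.62, 0.61 and 0.31, each ± 0.13 (adjusted p = 0.00321, 0.00286, 0.00251 and 0.135). After median centring its 3 calls ended, with adjusted p of 0.0587, 0.11 and 0.095.

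Ssr1 and Ssr3, subunits of the translocon-associated protein complex, and Kdelr2, the receptor that returns escaped chaperones, were not counted on any day. Ssr1 was lower by 0.37 on day 7 (adjusted p = 0.0127) and by 0.35 on day 14 (0.0348), but 0.10 and 0.18 higher as deposited. Another probe set of Ssr1 was higher on days 2, 5 and 7, by 0.56, 0.57 and 0.51 (adjusted p = 0.0375, 0.0269 and 0.0429). Where the probe set used and another of the same gene both passed the threshold on a day, this was the only pair of opposite sign, among 17 other probe sets of 11 genes.

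Herpud1, which organises the ubiquitin ligase complex of endoplasmic reticulum-associated degradation, was the only one of 5 degradation genes to fall, and none rose. Herpud1 ran from 8.87 to 9.59 in controls, median 9.05. It gave 8.64, 8.38 and 8.70 (day 2), 8.55, 8.004 and 8.69 (day 5), 7.85, 8.37 and 8.20 (day 7), and 7.86, 8.43 and 8.70 (day 14). All 12 colitis arrays lay below every control. Differences were -0.54 ± 0.20 on day 2 (adjusted p = 0.0666), -0.70 on day 5 (0.0157), -0.98 on day 7 (0.508-fold, 0.00183) and -0.79 on day 14 (0.0167). The day 7 call held under all 26 alternatives. That of day 5 ended without day 5 array 2 (adjusted p = 0.121), that of day 14 without day 14 array 1 (0.113), and both on the deposited scale (-0.25 and -0.23, adjusted p = 0.25 and 0.263).

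Sel1l and Syvn1 (HRD1), the core of that ligase complex, ranged from -0.03 to 0.37 and were not called. Edem1, a lectin-like mannosidase that marks glycoproteins for degradation, was lower by 0.37, 0.22, 0.30 and 0.30. It passed the adjusted threshold on days 2 and 7 (0.0125 and 0.0249) but was 0.14, 0.29, 0.22 and 0.29 higher as deposited, and is not counted. Another probe set of Edem1 differed by -0.38, -0.29, -0.28 and -0.38 (adjusted p = 0.00785, 0.0242, 0.0288 and 0.0105). A further one differed by -0.45, 0.24, -0.12 and -0.02 and was not called. Derl1, a channel component of retrotranslocation, differed by at most 0.16 in the probe set used, with no call. Another probe set of Derl1 was higher on every day, by 0.97, 0.85, 0.86 and 0.73, with adjusted p of 0.00111 or less.

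Of the 2 measured sensors, 1 fell on day 5 and the other rose on day 7. Eif2ak3 (PERK) fell on day 5, with arrays of 7.19, 6.77 and 6.97 against controls of 7.60 to 8.09, median 7.74 (-0.80 ± 0.19, adjusted p = 0.00701; as deposited -0.13, adjusted p = 0.554). Without day 5 array 2 the sign differed between scales and the call ended. Its day 2 values of 7.43, 7.00 and 7.39 also lay below all controls, at an adjusted p of 0.085. Day 7 gave 6.52, 7.64 and 7.51, of which array 1 lay furthest below the controls, and day 14, with 7.80, 7.77 and 7.62, lay inside their range. The day 7 difference was -0.55 (adjusted p = 0.0462), but 0.12 as deposited, and it is not counted; without day 7 array 1 it was -0.20 (adjusted p = 0.377).

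Atf6 rose on day 7, with 9.0, 9.65 and 8.74 against controls of 8.15 to 8.77, median 8.48 (0.69 ± 0.19, adjusted p = 0.0137). Array 3 lay within the control range, and the call ended without day 7 array 2 (0.43, adjusted p = 0.107). The other days were not called: -0.19 on day 2, 0.30 on day 5 and 0.26 on day 14. Another probe set of Atf6 differed by 0.22 on day 7 (adjusted p = 0.206).

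Of the 3 stress transcription factors, Ddit3 alone was called. Ddit3 encodes CHOP, the factor of prolonged stress that promotes cell death. It read 6.60 to 6.83 in controls, median 6.72. Arrays gave 6.40, 7.44 and 7.51 (day 2), 8.31, 9.83 and 8.74 (day 5), 9.97, 7.87 and 9.07 (day 7), and 6.49, 6.39 and 6.59 (day 14). All 6 arrays of days 5 and 7 lay above the controls, 1 array of day 2 lay below them, and all 3 arrays of day 14 lay just below them. Differences from control were 0.40 ± 0.37 on day 2 (adjusted p = 0.499), 2.23 on day 5 (4.71-fold, 0.000507), 2.25 on day 7 (4.74-fold, 0.000399) and -0.23 on day 14 (0.745). The calls of days 5 and 7 held under all 26 alternatives.

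Xbp1, the target of IRE1, had control values of 10.14 to 10.62, median 10.21. Colitis arrays gave 10.26, 10.09 and 10.24 (day 2), 10.01, 10.20 and 10.09 (day 5), 10.32, 10.55 and 10.57 (day 7), and 10.12, 10.31 and 10.48 (day 14). Every day overlapped the controls, and differences were -0.09, -0.19, 0.19 and 0.02, each ± 0.11. Atf4, the factor translated when the initiation factor eIF2 alpha is phosphorylated, ran from 10.16 to 10.41 in controls and from 10.14 to 10.50 in colitis. Its differences were 0.10, -0.01, 0.01 and 0.06, each ± 0.09. The 95% intervals of Atf4 lay within -0.20 and 0.29 on all 4 days. After median centring the median gene differed by -0.15, -0.17, -0.21 and -0.13 on the 4 days, as given above. Atf4 then differed by -0.30, -0.43, -0.39 and -0.29 (adjusted p = 0.0299, 0.00377, 0.00575 and 0.0397). Xbp1 then differed by -0.47, -0.59, -0.21 and -0.32 (adjusted p = 0.00286, 0.000457, 0.101 and 0.0238). As deposited, where the median gene was higher by 0.62, 0.59, 0.56 and 0.62, both genes had the opposite sign. There Atf4 differed by 0.47, 0.34, 0.38 and 0.46 (limma adjusted p = 0.000623, 0.00681, 0.00333 and 0.000708). Xbp1 differed by 0.30, 0.17, 0.555 and 0.425 (0.0146, 0.141, 0.000176 and 0.00146). The direction of both genes thus depends on the scale.

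Among 4 genes known as targets of ATF4 and CHOP, 1 rose on 1 day and none fell. Ppp1r15a (GADD34) brings the phosphatase that removes the phosphate from eIF2 alpha and so restores translation. It ran from 6.79 to 7.29 in controls, median 6.99, and gave 6.66, 7.12 and 7.00 (day 2), 7.75, 7.79 and 7.73 (day 5), 9.32, 7.35 and 8.40 (day 7), and 7.22, 6.62 and 6.60 (day 14). Days 5 and 7 lay above all controls. The day 5 difference was 0.74 ± 0.29 (adjusted p = 0.0688) and that of day 7 was 1.35 (2.54-fold, 0.0027), while days 2 and 14 gave -0.09 and -0.20.

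Asns (asparagine synthetase) differed by 0.84, 0.66, 0.63 and -0.11, each ± 0.34, and was not called, with controls spread from 5.48 to 6.81. Chac1, which degrades glutathione, stayed between -0.24 and 0.03. Trib3, a pseudokinase that restrains ATF4 and CHOP, was -0.36, -0.17, -0.36 and -0.40 from control with no call. Another probe set of Trib3 was higher on day 7, by 0.55 (adjusted p = 0.00907).

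**Figure D4:**
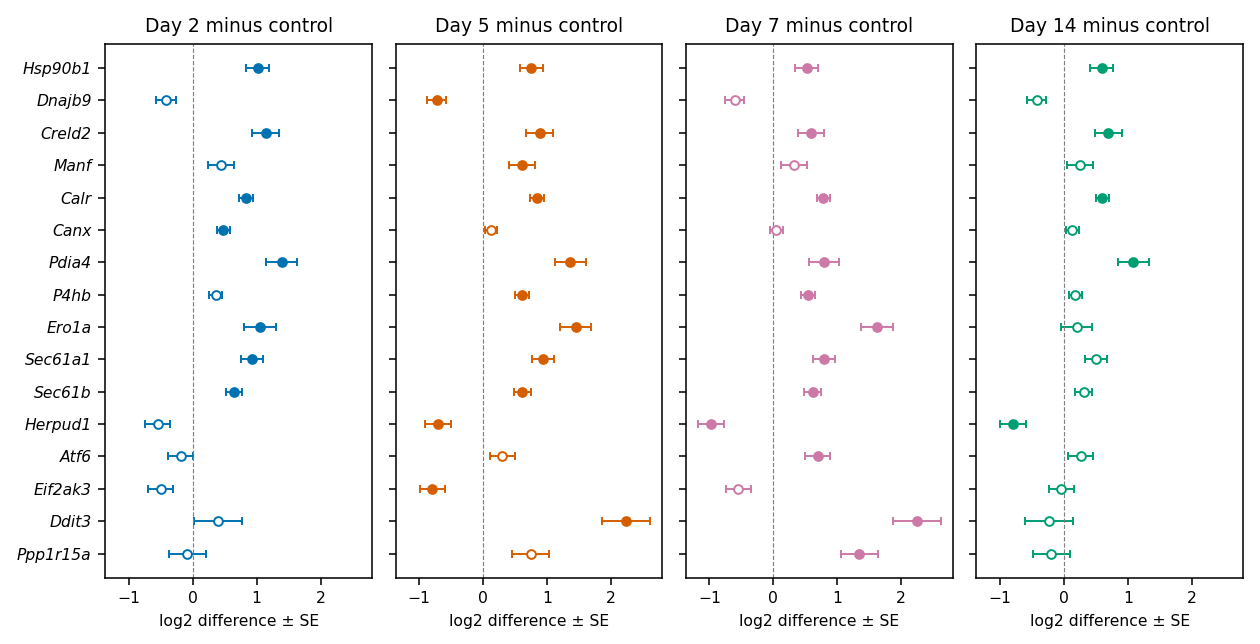
Log2 difference from control, with the SE of the limma fit, for the 16 genes that rose or fell on any day; filled points rose or fell and open points did not meet the rule. Ddit3 lies furthest right on days 5 and 7 and at -0.23 on day 14, while Calr stays between 0.60 and 0.85 on all 4 days.

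Over the course, 4 of the 37 genes rose on all 4 days (Hsp90b1, Creld2, Calr and Pdia4), beside 3.64% of all genes, and 3 more on 3 days (Ero1a, Sec61a1 and Sec61b), beside 4.15%. Another 24 rose on no day, as did 79.1% of all genes. Ranges that did not overlap the controls were found for 10 genes above and 3 below on day 2 (10.7% and 10.2% of all genes), and for 10 and 3 on day 5 (14.0% and 16.4%). Day 7 had 8 above and 4 below (14.1% and 18%), and day 14 had 4 and 4 (9.71% and 10.2%).

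Of the comparisons between days, 4 were run: day 5 against day 2, day 7 against day 5, and day 14 against days 7 and 2; days 7 and 2, and days 14 and 5, were not compared. Calls were made in 1 of the 4, day 14 against day 7. Lower on day 14 were Ddit3, with a difference of -2.48 ± 0.43 (0.18-fold, adjusted p = 0.00485), Ppp1r15a with -1.54 ± 0.33 (0.343-fold, adjusted p = 0.0157) and Ero1a with -1.42 ± 0.28 (0.375-fold, adjusted p = 0.0103). These 3 genes stand beside 4.35% of all genes called lower and 1.67% called higher, and no member was called higher (1 at an unadjusted limma p under 0.05). The 3 arrays of each of the 2 days did not overlap for any of these 3 genes. They were picked by the same comparison, so this adds no support, and the share of all genes without overlap was not counted. Without day 7 array 1 only 1 call was left, that of Ddit3, with adjusted p of 0.0256; Ero1a then had 0.0609. The Ppp1r15a call also ended without day 7 array 3 or day 14 array 2 or 3 (up to 0.0786). A fit of the 2 days alone also left Ddit3 as the only call, with adjusted p of 0.0486 for Ddit3, 0.0674 for Ero1a and 0.145 for Ppp1r15a.

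No gene of the 37 was called for day 5 against day 2 (0.0211% of all genes were called higher and 0% lower), where limma gave 4 at an unadjusted p under 0.05. The largest of these was Ddit3 at 1.84 ± 0.43 (adjusted p = 0.177). Day 7 against day 5 also gave 0 calls and 1 gene at an unadjusted p under 0.05 (0.0141% higher and 0% lower over all genes). Day 14 against day 2 gave 0 calls and 6 at an unadjusted p under 0.05 (0.0141% and 0.0492%), all 6 lower on day 14. These counts stayed at 0 under every alternative run. In limma's moderated F test among the 4 colitis days, Ddit3 (adjusted p = 0.0073), Ero1a (0.0352) and Ppp1r15a (0.0399) were called, beside 3.66% of all genes. Only 1 gene was left in that test without control 2, 3, 4 or 5 or any 1 of the day 14 arrays.

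Chaperones and stress transcription factors were set side by side as the mean, over 11 chaperones (the 9 chaperones and cochaperones and the 2 lectins) and over 3 factors, of the difference from the control mean in each array. The chaperone mean ran from -0.16 to 0.28 in controls. It was 0.18, 0.43 and 0.77 (day 2), 0.19, 0.69 and 0.33 (day 5), 0.24, 0.30 and 0.26 (day 7), and 0.06, 0.20 and 0.39 (day 14). Each day had at least 1 array within the control range, and array 3 of day 2 and array 2 of day 5 stood highest.

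The mean of the 3 factors ran from -0.10 to 0.11 in controls, and was -0.10, 0.19 and 0.32 (day 2), 0.41, 1.01 and 0.62 (day 5), 1.15, 0.43 and 0.87 (day 7), and -0.09, -0.15 and 0.09 (day 14). Days 5 and 7 lay above all controls. Of the 3 factors, Ddit3 alone was called there, at 2.23 and 2.25. Xbp1 differed by -0.19 and 0.19 on these days, and Atf4 by -0.01 and 0.01. Each was less than the group mean of the chaperones, 0.41 on day 5 and 0.27 on day 7. The factor mean of these days, and the sign of its difference from the chaperone mean, thus rest on Ddit3. The chaperone mean minus the factor mean was 0.28, 0.24 and 0.45 (day 2), -0.22, -0.31 and -0.29 (day 5), -0.91, -0.13 and -0.61 (day 7), and 0.15, 0.35 and 0.30 (day 14), against -0.19 to 0.25 in controls. So the 3 arrays of day 5 and 2 of 3 on day 7 lay below the controls, and 2 of 3 arrays on each of days 2 and 14 lay above them. The group means were 0.32 ± 0.11 (SD, n = 3), -0.27 ± 0.05, -0.55 ± 0.39 and 0.27 ± 0.10, and they kept these signs as deposited. Median centring moves all values of an array by 1 amount, so the score after it equals that of the deposited values and adds nothing. No test was made of this score.

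**Figure D5:**
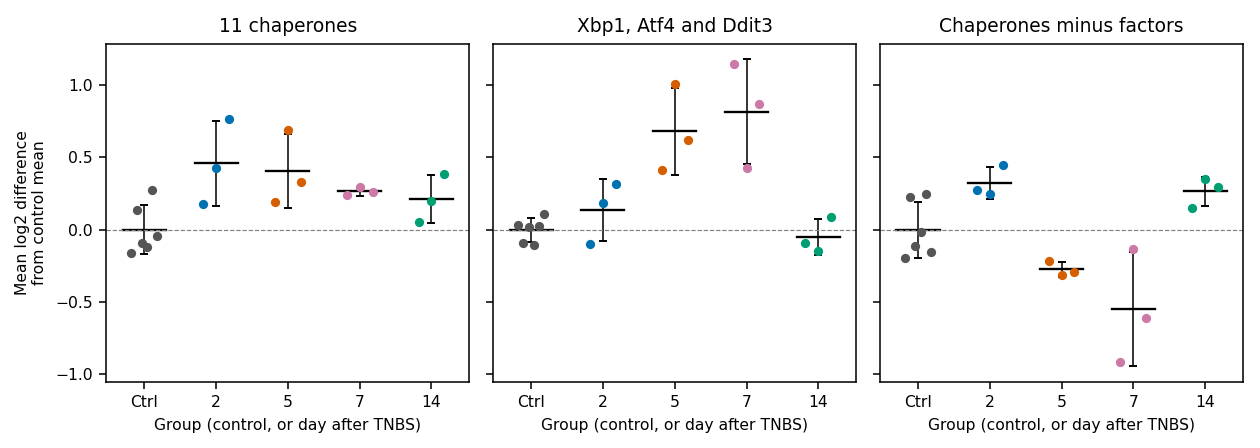
Mean log2 difference from the control mean over 11 chaperones (left), over Xbp1, Atf4 and Ddit3 (middle), and the first minus the second (right); points are arrays, bars the group mean and whiskers the SD. The middle panel is highest on days 5 and 7, and the right panel lies below 0 in all 6 arrays of those days and above 0 in all 6 of days 2 and 14.

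Markers of leukocytes and stroma moved over the same days. Of 10 measured macrophage and monocyte markers (of 11), 9, 9, 10 and 0 rose on days 2, 5, 7 and 14, with list means of 0.96 to 2.41, 1.68 to 3.05, 2.47 to 2.72 and -0.05 to 0.65 over the arrays, against -0.21 to 0.09 in controls. Of them 1 lay above the upper quartile of genes in controls and 7 on day 7. Of 6 measured neutrophil markers (of 9), 4, 5, 5 and 2 rose, with means of 1.65 to 3.54, 3.12 to 4.21, 3.59 to 4.76 and 0.73 to 1.41 against -0.14 to 0.10, and 0 of the 6 lay above the upper quartile in controls against 3 on day 7. Fibroblast markers (10 of 10 measured) rose in 1, 7, 8 and 0 cases, with means of -0.09 to 0.77, 0.54 to 1.36, 1.28 to 1.55 and -0.14 to 0.57 against -0.18 to 0.14. Endothelial markers (6 of 7 measured) rose in 0, 5, 5 and 0 cases and mesothelial markers (4 of 5) in 0, 3, 3 and 0. The part of these cells in the levels of Ddit3, Ero1a, Ppp1r15a and P4hb was not tested.

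Secretory cells were covered by 2 further lists. B and plasma cell markers (8 of 11 measured) had list means of -0.53 to 1.35 in controls, -0.71 to 1.66 on day 2, -0.76 to 0.50 on day 5, -0.47 to 0.49 on day 7 and 0.11 to 1.84 on day 14, with at most 1 marker rising and 1 falling on a day. Array 3 of day 2 had both the highest mean of this list on that day and the highest chaperone mean of all arrays. T cell markers (9 of 9 measured) were highest in the same array, at 2.22 against -0.39 and -0.23 in the other day 2 arrays, with controls from -0.23 to 0.53; 1, 0, 3 and 1 of them rose on the 4 days, and 0 lay above the upper quartile in controls. Array 2 of day 5, with the second highest chaperone mean, had -0.34 for the B and plasma cell list and 0.13 for the T cell list. Array 2 of day 14 had the highest B and plasma cell mean of all arrays, 1.84. Its chaperone mean was 0.20, within the control range. Goblet cell markers (8 of 8 measured) had means of -0.22 to 0.12 in controls, -0.46 to 0.03, -0.74 to 0.02, -1.01 to -0.32 and -0.15 to 0.11 on the 4 days, with 1, 2, 2 and 0 markers that fell and 1, 1, 0 and 0 that rose. Smooth muscle markers fell in 3, 3, 2 and 2 of 8 cases, with means of -0.86 to 0.20, -1.11 to -0.43, -0.56 to -0.01 and -0.74 to -0.25 against -0.18 to 0.18. The part of any of these cells in the chaperone levels was not tested.

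Set beside the promoter elements above, 10 measured genes held an ERSE or ERSE-II. Of these 4 rose on any day (Hsp90b1, Creld2, Calr and Canx), the first 3 on all 4 days, and 1 fell (Herpud1); of all genes 20.9% rose and 10.4% fell on any day. Hspa5, Xbp1, Dnajc3, Dnajb11 and Hyou1 hold the same kind of element and were not called. Of 19 genes whose window held neither, 5 rose on any day, 1 of them on all 4 (Pdia4), and 2 fell. For some of the 19 the start used lay inside the gene, furthest for Dnajb9 (by 5320 bases), Edem1 (2686), Syvn1 (2172) and Asns (555). Sequence before their outermost start was not searched, and Dnajb9 is among those that fell. All of these are counts with no test.

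The wider pathway was read from 115 other genes, 109 of them measured. On days 2, 5, 7 and 14, 23, 29, 26 and 10 rose, beside 11.1%, 14.3%, 14.3% and 6.32% of all genes. On these days 1, 6, 7 and 0 fell, beside 4.23%, 6.65%, 7.24% and 1.23%. The counts of each list below are to be read against the same shares, and no list was tested. The median difference was 0.16, 0.12, 0.05 and 0.03, beside -0.01, -0.02, -0.06 and -0.02 over all genes. Named from each list are the 3 genes that ranked first by adjusted p in the F test against control.

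Among 20 other folding enzymes, 4, 6, 5 and 0 rose and 0, 1, 0 and 0 fell on the 4 days. Nucb2, a calcium-binding protein, rose by 0.99, 1.23 and 1.57 on days 2, 5 and 7, Fkbp11, a prolyl isomerase, by 0.74, 0.94 and 1.08, and Uggt1, the glucosyltransferase that recognises misfolded glycoproteins, by 1.03, 0.90 and 0.69. On day 14 they differed by 0.19, 0.46 and 0.51, not called. Of 17 measured genes of glycosylation, signal recognition and signal peptidase, 4, 5, 3 and 4 rose and 0, 0, 1 and 0 fell. Srp72 and Srp68, of the signal recognition particle, and Rpn2, of the oligosaccharyl transferase, rose on all 4 days, by 0.41 to 0.77, by 0.40 to 0.55 and by 0.51 to 0.73.

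Of 20 other genes of translocation, traffic and retrieval, 3, 3, 5 and 2 rose and 0, 0, 2 and 0 fell. Sec13 and Sec31a, coat proteins of vesicles that leave the endoplasmic reticulum, rose on all 4 days, by 0.88 to 1.15 and by 0.56 to 0.79, while Bet1, a vesicle fusion protein, was lower by 0.55 on day 5 with a sign that changed between scales. Of 17 other degradation genes, 4, 5, 3 and 2 rose and 0, 2, 1 and 0 fell. Rnf5, a membrane-bound ubiquitin ligase, rose by 0.71 to 1.01 and Ube2g2, a ubiquitin-conjugating enzyme, by 0.40 to 0.77 on all 4 days, and Selenok, a membrane selenoprotein, fell on days 5 and 7 by 0.49 and 0.43.

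Of 22 other genes of the integrated stress response, 7, 8, 8 and 1 rose and 1, 2, 2 and 0 fell. Cebpb, a bZIP factor of acute inflammation that also pairs with CHOP, rose by 1.40 ± 0.33, 2.38 and 3.02 on days 2, 5 and 7 and differed by 0.11 on day 14. Sesn2 rose by 0.96 and 1.09 on days 5 and 7. Ppp1r15b, the constitutive counterpart of Ppp1r15a, fell on day 7 by 0.81 ± 0.10 (adjusted p = 2.47e-05), the day on which Ppp1r15a rose. Of 13 measured genes of other stress signalling, 1, 2, 2 and 1 rose and 0, 1, 1 and 0 fell. Bak1, an effector of mitochondrial cell death, rose by 1.52, 1.90, 1.27 and 1.64 (each ± 0.14) on the 4 days, and Bcl2l11 (BIM), a cell death protein known as a CHOP target, by 1.00 and 1.25 on days 5 and 7. Crebrf, a regulator of CREB3, fell by 1.54 and 1.04 on days 5 and 7.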

How the data were processed

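Expression was measured in 18 full-thickness rat colon samples, 1 array each: 6 controls and 3 samples on each of 4 days after TNBS. Per the labels, the authors used the Bioconductor package affyPLM for normalization and deposited 1 value per probe set, taken here as log2 from its range. Not given in the sources used here are the log base, the version, the background correction, and if controls and TNBS arrays were processed jointly. Raw array intensities were not read here, and sequencing depth does not apply to arrays. The number of arrays limits the precision. Nothing says that TNBS replicates were separate animals; if not, p-values measure only the spread between these samples, which may be technical.

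From 31099 probe sets, 57 array controls were left out. Of the 31042 tested, 20826 had 1 gene symbol in the platform annotation, 436 several and 9780 none. Values were quantile-normalized over the 18 arrays and fitted with limma 3.58.1 in R 4.3.3 (1 coefficient per group, default prior), two-sided, with Benjamini-Hochberg adjustment over all probe sets at 0.05. The rise and fall rule also asks for 1 sign on 3 scales (quantile-normalized, as deposited, and median-centred). Every member could be named, and of the wider pathway the 3 genes per list ranked first by adjusted p in the F test against control. Members, lists and tests were chosen with earlier results of these data known. Alternatives were the deposited values, median centring, leaving out the dimmest 25% of probe sets, a trend and robust prior, only the groups compared, array weights, a replicate block, the mean of a gene's probe sets, and leaving out each array. The fit was tested on simulated data without the difference in level between control and TNBS arrays. That test does not cover the normalization across this difference. Promoter windows came from RefSeq, build GRCr8; the deposited values name no genome build. Figures and tables were made with Python 3.11.15, pandas 2.3.3 and matplotlib 3.10.9.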

Additional observations from a re-analysis of the deposited data

Results flagged for a closer look

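Among the 37 genes, each examined in the 6 controls for 1 array far from the others, 3 had such an array; chance gives about 5% of groups. Ero1a read 7.65 in control 6, against 7.22 to 7.34 in the other controls. Control 1 was low for Trib3, at 4.59 against 5.06 to 5.27, and for Chac1, at 4.68 against 5.21 to 5.44. Groups of 3 arrays were not examined in this way.

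Between days 7 and 14 the response to TNBS differed for 3 genes by limma's test of the difference itself. Ddit3 differed by -2.48, Ppp1r15a by -1.54 and Ero1a by -1.42 on the log2 scale. All were lower on day 14, in 3 of 3 arrays against 3 of 3 for each gene. As the genes were picked by this test, the counts of arrays add no support.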

How the results depend on the processing

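Leaving out the dimmest probe sets or using the trend and robust prior moved no count of genes called by more than 1.5 times. On the deposited values, 14, 20 and 10 genes were higher on days 2, 5 and 14, and 0 were lower on days 5 and 14. Median centring left 6 higher on day 5 and 7 on day 7, with 1 lower on day 2 and 2 lower on day 14. Fits of only the 2 groups compared gave 1 lower on day 2, 2 lower on day 14 and 1 call for day 14 against day 7. Array weights gave 1 lower on day 2, 7 higher on day 14 and 2 lower on day 14. The fits of 2 groups held fewer arrays and their own estimate of spread. The causes were not tested.

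Leaving out 1 array gave 7 to 13 higher and 0 to 1 lower on day 2, 7 to 11 and 0 to 3 on day 5, 7 to 11 and 1 to 2 on day 7, and 2 to 5 and 0 to 2 on day 14. It gave 1 to 4 calls for day 14 against day 7, 1 to 4 in the F test among days, and 0 to 0 in the other 3 comparisons of days.

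The replicate numbers were not treated as pairs in the main fit, although a pairing was not excluded. The 18 same-number pairs had correlations of deviations from -0.33 to 0.47, 8 of them over 0.1. Of 12 TNBS arrays, 6 correlated best with their own number. With the replicate block, 1 gene was lower on day 5, 0 were lower on day 14 and 0 were called in the F test. The other counts stayed within 1.5 times. The block ended the calls of Herpud1 on days 5 and 14 (limma adjusted p = 0.0581 and 0.0636) and of Eif2ak3 on day 5 (0.0815). It also ended those of Atf6 on day 7 (0.0654) and Hsp90b1 on day 14 (0.0517), and added Sec61a1 on day 14.

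Some signs changed. As deposited, on day 2, Ssr1 was 0.34, Edem1 0.14, Xbp1 0.30, Trib3 0.43, Chac1 0.79 and Ppp1r15a 0.66 above control. On day 5, Ssr1 was 0.26, Edem1 0.29, Atf4 0.34 and Trib3 0.61 above. On day 7, Dnajb9 was 0.10, Ssr1 0.10, Syvn1 0.69, Edem1 0.22, Eif2ak3 0.12, Trib3 0.45 and Chac1 0.76 above. On day 14, Dnajb9 was 0.33, Ssr1 0.18, Sel1l 0.87, Edem1 0.29, Eif2ak3 0.68, Trib3 0.38, Chac1 0.57 and Asns 0.78 above. After median centring, P4hb gave -0.12 and Atf4 -0.30 on day 2, Pdia3 -0.28 on day 5, Canx -0.32, Pdia3 -0.31 and Atf4 -0.39 on day 7, and Xbp1 -0.32 and Atf4 -0.29 on day 14. The mean of its probe sets turned Ssr1 to 0.071 on day 7. The cause was not tested. Calls of Calr on all days, Pdia4 on days 2, 5 and 14, Hsp90b1 and Creld2 on day 2, Ero1a on days 5 and 7, Sec61a1 on days 2, 5 and 7, Herpud1 and Ppp1r15a on day 7, and Ddit3 on days 5 and 7 and for day 14 against day 7 held under all 26 alternatives.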
